A study of Mus musculus with 6 samples.

Results

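Interferon regulatory factors (IRFs) are the genes described here, with their mRNA level and its change in SL4 cells that overexpress SEMA6A. The members were the 8 rows of the deposited expression table whose gene name was Irf1, Irf2, Irf3, Irf4, Irf5, Irf7, Irf8 or Irf9, out of 53700 listed genes. SL4 is a luciferase-expressing mouse colorectal cancer (CRC) cell line, and the cells were sampled in culture with no agent named in the labels. The study compared 3 libraries without overexpression, named pLV-Control here, with 3 libraries of a stable line carrying a lentivirus for SEMA6A, named pLV-SEMA6A. Both groups share the SL4 background and its luciferase. The labels name no control lentivirus, and for the sequencing the paper calls the control cells SL4 in places and pLV-Control in others. If the control cells had no lentivirus, its effect cannot be told apart from that of SEMA6A. A single stable line is described, so the effect of SEMA6A and the properties of that line cannot be told apart. Nothing in the labels says that replicates came from separate cultures, so p-values measure the spread between these libraries only.

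IRFs are transcription factors that share a DNA-binding domain recognizing GAAA repeats. IRF3 is made constitutively and, like IRF7, is phosphorylated by TBK1 and IKKε after nucleic acid sensing to switch on type I interferon genes, whereas IRF9 joins STAT proteins in ISGF3, the complex that drives interferon-stimulated genes and also Irf7 itself. IRF1 activates and IRF2 often antagonizes transcription at shared sites, IRF5 acts downstream of Toll-like receptors, and IRF4 and IRF8 are best known from lymphoid and myeloid cells.

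Expression was deposited as TPM, a relative transcript abundance scaled by transcript length and library total, so read depth was unknown. A fold change below is a difference of log2(TPM + 1), pLV-SEMA6A minus pLV-Control, from limma with p-values adjusted over 12510 genes whose mean reached 1 TPM. A gene was called differentially expressed (DEG) when its adjusted p was below 0.05 and its log2 fold change exceeded 0.5 in size. Where libraries are set against each other, replicates 1, 2 and 3 of pLV-Control come first. Sema6a, the targeted gene, was at 98.7, 118 and 112 TPM with the lentivirus and listed at 0 in all 3 controls. Genes above 0 numbered 19340 to 19463 per pLV-Control library and 18798 to 18887 per pLV-SEMA6A library. Correlations of log2 values were 0.967 to 0.978 within pLV-Control, 0.974 to 0.978 within pLV-SEMA6A and 0.941 to 0.957 between groups. In pLV-SEMA6A replicate 2 the mitochondrial gene mt-Co3 was listed at 0.33 TPM, against 141 to 450.1 in the others, and the reason was not tested. Values of 0 are given as listed. Without that library the counts of IRF DEGs below were the same.

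Cell type markers were checked against the label. Epithelial markers were nearly absent, with 3 of 12 (Epcam, Cdx1 and Cdx2) at 0 in every library and summed levels of 1.94 to 2.97 TPM in pLV-Control and 0.57 to 1.35 in pLV-SEMA6A. The sum of 8 fibroblast markers, most of it Vim, was 1002 to 1039 TPM and 1563 to 1604 TPM, respectively. Of the 5 tested fibroblast markers, Vim, Col3a1 and Col1a1 rose as DEGs and Pdgfra fell, and Lgals4, the single epithelial marker tested, fell (−1.24). Leukocyte markers summed to 1.36 to 2.80 and 1.14 to 1.92 TPM, with 6 of 16 at 0 throughout. The part of these markers in the results below was not tested.

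Of the 8 members, 7 were above 0 in at least 1 library and 6 passed the filter on low values. Of these 6, the 4 genes Irf7, Irf5, Irf9 and Irf1 fell as DEGs and none rose. Irf2 and Irf3 were lower at adjusted p under 0.05 but did not reach the minimum fold change. Among all tested genes, 10.8% were DEGs that fell and 5.12% DEGs that rose. After each library was centred on its median, 961 genes fell and 1002 rose, against 1347 and 640 as deposited, and the 4 members were still DEGs that fell. All 6 tested members were lower at adjusted p under 0.05, where 28.2% of tested genes were lower and 19.5% higher. In all 6 every pLV-SEMA6A library lay below every pLV-Control library, which held for 34.7% of tested genes. The median log2 fold change was −1.17 over the 6 members and −0.06 over all tested genes. In bulk RNA, fewer expressing cells and less RNA per cell cannot be told apart.

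**Figure D1:**
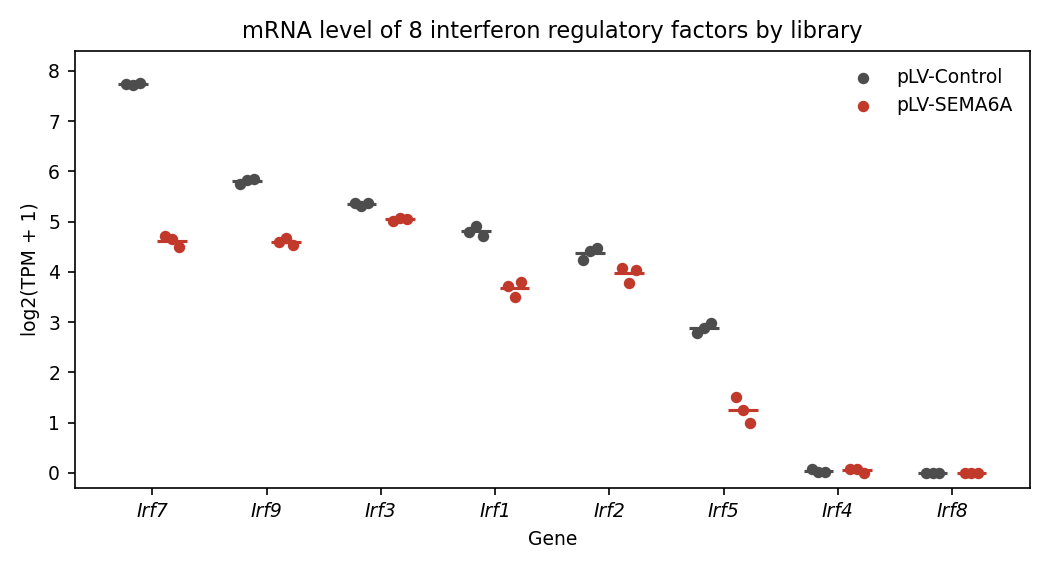
Level of each of the 8 IRF genes, as log2(TPM + 1), in 3 pLV-Control and 3 pLV-SEMA6A libraries. Points are libraries and bars are group means. The groups are separate for Irf7, Irf9, Irf3, Irf1, Irf2 and Irf5, and Irf4 and Irf8 lie at or near 0.

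Irf7 encodes the interferon-inducible factor that amplifies type I interferon production (ENSMUSG00000025498, chromosome 7). Its level was 212, 211 and 217 TPM (pLV-Control) against 25.2, 24.0 and 21.6 TPM (pLV-SEMA6A). The groups were far apart, and Irf7 went from the most abundant member to a level close to that of Irf9. The means were 213 ± 3.12 and 23.6 ± 1.85 TPM (SD, n = 3), a 9.05-fold difference in TPM. The log2 fold change was −3.13 (SE 0.057, 95% interval −3.27 to −2.99, adjusted p = 5.0e-07), number 16 among the falls of all tested genes.

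Irf9 encodes the DNA-binding subunit of ISGF3 (ENSMUSG00000002325, chromosome 14). It was at 53.1, 55.6 and 56.7 TPM (pLV-Control) against 23.2, 24.4 and 22.1 TPM (pLV-SEMA6A). All pLV-SEMA6A libraries lay below the pLV-Control libraries, with little spread in either group. Means were 55.1 ± 1.84 and 23.2 ± 1.15 TPM (SD, n = 3), and the log2 fold change was −1.21 (SE 0.050, 95% interval −1.33 to −1.09, adjusted p = 1.1e-05).

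Irf1, which encodes an activator induced by interferon-γ and itself a regulator of MHC class I processing genes (ENSMUSG00000018899, chromosome 11), had 26.7, 29.3 and 25.1 TPM in pLV-Control. In pLV-SEMA6A it had 12.2, 10.4 and 12.8 TPM. The ranges did not overlap. The means of 27.0 ± 2.13 and 11.8 ± 1.27 TPM (SD, n = 3) gave a log2 fold change of −1.13 (SE 0.092, 95% interval −1.35 to −0.91, adjusted p = 0.000166).

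Irf5, a factor acting downstream of MyD88 (ENSMUSG00000029771, chromosome 6), was the least abundant of the tested members, at 5.87, 6.36 and 6.88 TPM in pLV-Control. The pLV-SEMA6A libraries had 1.85, 1.37 and 1.00 TPM. Every pLV-SEMA6A value was below every pLV-Control value. Means were 6.37 ± 0.505 and 1.41 ± 0.426 TPM (SD, n = 3), and the log2 fold change of −1.63 was the least precise of the DEGs (SE 0.154, 95% interval −2.00 to −1.26, adjusted p = 0.000304). Irf5 overlaps Tnpo3 on the opposite strand over 411 bases, 14.1% of its exon bases in GENCODE M21, and 12.3% of its 31-base stretches occur in another gene. No strand setting is stated, so reads of the overlap could be given to either gene. Tnpo3 was at 52.9, 54.6 and 51.3 TPM (pLV-Control) against 60.8, 60.3 and 60.1 TPM (pLV-SEMA6A), in the opposite direction to Irf5.

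Irf2 and Irf3 had smaller log2 fold changes. Irf2, which encodes the antagonist of IRF1 at many sites (ENSMUSG00000031627, chromosome 8), was at 17.8, 20.5 and 21.2 TPM (pLV-Control) against 15.97, 12.8 and 15.4 TPM (pLV-SEMA6A). The groups were separate but close. Its log2 fold change was −0.41 (SE 0.102, 95% interval −0.65 to −0.16, adjusted p = 0.0174), and the adjusted p was 0.0582 without pLV-Control replicate 3 and 0.0558 without pLV-Control replicate 2. Irf3, which encodes the constitutive partner of IRF7 in virus sensing (ENSMUSG00000003184, chromosome 7), was at 40.1, 38.7 and 40.2 TPM (pLV-Control) against 31.2, 32.6 and 32.3 TPM (pLV-SEMA6A). These values were tight in both groups and did not overlap. The log2 fold change was −0.30 (SE 0.038, 95% interval −0.39 to −0.21, adjusted p = 0.00103), and −0.21 with each library centred on its median.

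Irf4 and Irf8 were at or near 0. Irf4 (ENSMUSG00000021356, chromosome 13) was at 0.05, 0.01 and 0.01 TPM (pLV-Control) against 0.05, 0.05 and 0 TPM (pLV-SEMA6A). Irf8 (ENSMUSG00000041515, chromosome 8) was listed at 0 in all 6 libraries. Neither was tested. Of 11 lineage partners with which IRF4 and IRF8 act in immune cells, 3 (Spi1, Ikzf1 and Ikzf3) were at 0 throughout and 4 were tested. Of these 4, 1 fell as a DEG, beside 10.8% of all tested genes. At adjusted p under 0.05, 2 were lower, beside 28.2%. Their median log2 fold change was −0.42, beside −0.06 over all tested genes. Batf3, which encodes a basic leucine zipper partner of IRF4 and IRF8, was the DEG among them, at 3.49, 6.06 and 3.91 TPM (pLV-Control) against 2.89, 2.03 and 2.49 TPM (pLV-SEMA6A). Its call was weak (log2 fold change −0.64, SE 0.198, adjusted p = 0.0364), and without pLV-Control replicate 2 the values were −0.44 and 0.0719. Leaving out pLV-Control replicate 3 or any 1 of the pLV-SEMA6A libraries also took its adjusted p to at least 0.050, and it was 0.083 with the replicate block and 0.064 with median centring.

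**Figure D2:**
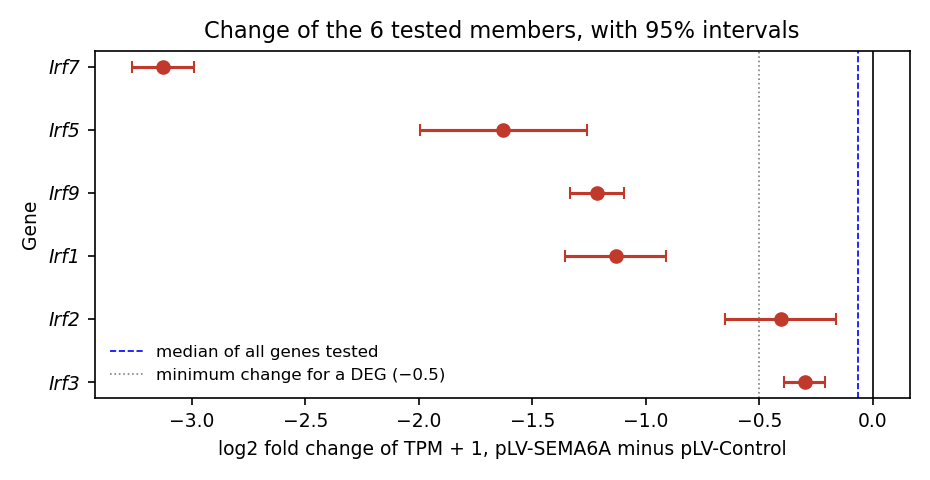
Log2 fold change of TPM + 1 (pLV-SEMA6A minus pLV-Control) of the 6 tested IRF genes, with 95% intervals from limma. The intervals of Irf7, Irf5, Irf9 and Irf1 lie below the DEG minimum of −0.5, that of Irf2 crosses it, and that of Irf3 lies between it and 0.

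The order of levels also differed between groups. In pLV-Control the order was Irf7, Irf9, Irf3, Irf1, Irf2, Irf5, Irf4, Irf8, and the libraries of neighbours in that order did not overlap. In pLV-SEMA6A, Irf3 came before Irf7, Irf9, Irf2, Irf1, Irf5, Irf4 and Irf8. There the ranges of Irf7 and Irf9, of Irf2 and Irf1, and of Irf4 and Irf8 overlapped. The summed level of the 8 genes was 356, 361 and 367 TPM (pLV-Control) against 109.7, 106 and 105 TPM (pLV-SEMA6A). The sum was therefore 3.38-fold lower in mean. Irf7 made up 59.0 ± 0.635% of that sum in pLV-Control and 22.1 ± 1.36% in pLV-SEMA6A (SD, n = 3), and the share of Irf3 was 10.98 ± 0.287% and 30.0 ± 1.35%. Shares of a sum depend on each other, and the larger share of Irf3 went with a lower level of Irf3 itself.

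**Figure D3:**
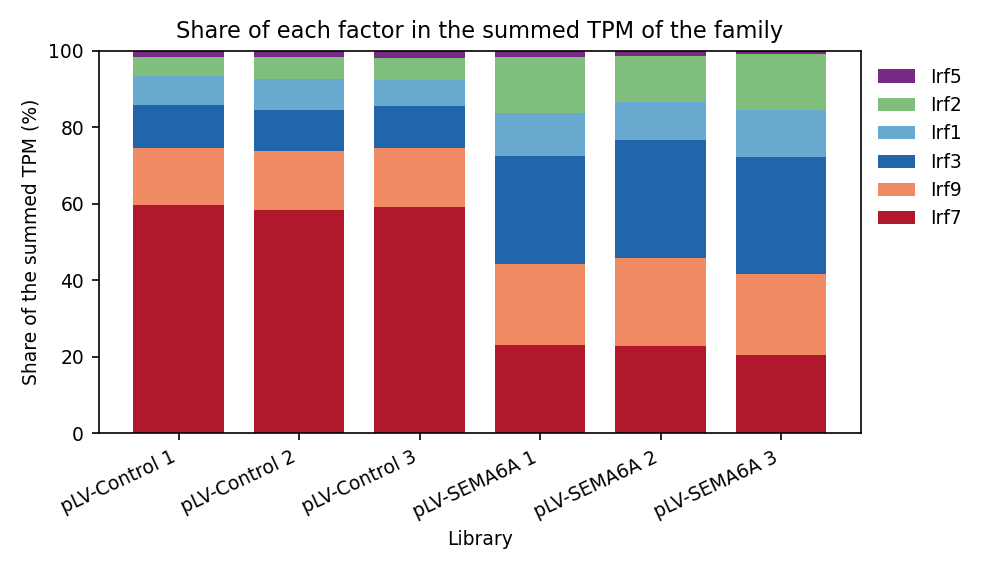
Share of each IRF gene in the summed TPM of the family (percent), by library. Irf4 and Irf8 hold less than can be drawn. Irf7 holds most of the sum in every pLV-Control library, and Irf3 holds the largest share in every pLV-SEMA6A library.

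Ratios within a library compare members without the scale of the library. The Irf1 to Irf2 ratio, activator to antagonist, was 1.502, 1.43 and 1.18 in pLV-Control and 0.764, 0.810 and 0.830 in pLV-SEMA6A, a log2 difference of −0.77. Irf1 was thus above Irf2 in each pLV-Control library and below it in each pLV-SEMA6A library. The Irf7 to Irf3 ratio, inducible to constitutive factor, was 5.38 ± 0.083 and 0.737 ± 0.069 (SD, n = 3), a log2 difference of −2.87. The Irf9 to Irf3 ratio was 1.39 ± 0.060 and 0.725 ± 0.036 (SD, n = 3), a log2 difference of −0.94. The groups did not overlap in any of these ratios, nor in that of Irf9 to Stat2 given below. An exact two-sided permutation test gave p = 0.1 for each, the smallest that 3 against 3 libraries allow, and 0.1 after adjustment over the 5 ratios computed.

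**Figure D4:**
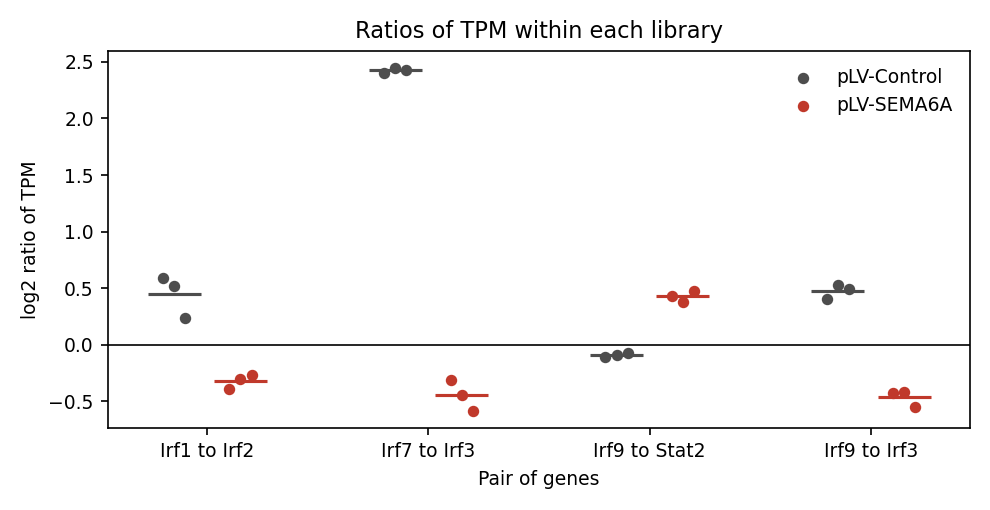
Log2 ratio of TPM between pairs of genes in each library, with bars at group means. The Irf1 to Irf2, Irf7 to Irf3 and Irf9 to Irf3 ratios are above 0 in pLV-Control and below 0 in pLV-SEMA6A, whereas Irf9 to Stat2 is higher in pLV-SEMA6A.

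Stat2, encoding the STAT protein that binds IRF9 in ISGF3, fell as well. It was at 57.2, 59.2 and 59.7 TPM (pLV-Control) against 17.2, 18.7 and 15.8 TPM (pLV-SEMA6A), a log2 fold change of −1.71 (SE 0.063, adjusted p = 7.8e-06). The groups were far apart. Per library, the Irf9 to Stat2 ratio was 0.939 ± 0.011 in pLV-Control and 1.35 ± 0.046 in pLV-SEMA6A (SD, n = 3), a log2 difference of 0.52. Of the receptor kinases, Tyk2 fell from 11.96, 12.1 and 11.5 TPM to 5.89, 6.34 and 5.78 TPM (−0.88, SE 0.064, adjusted p = 0.000105). Jak2 was lower by less than the DEG minimum (−0.32, adjusted p = 0.0024) and Jak1 higher by less (0.19, adjusted p = 0.0023, and 0.28 with median centring).

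Interferon genes themselves were at or near 0. Of 21 ligand genes, 18 were at 0 in every library, none passed the filter, and the highest value was 0.76 TPM (Ifne in pLV-SEMA6A replicate 2). Ifnb1, a direct IRF3 and IRF7 target, was at 0, 0 and 0.12 TPM (pLV-Control) against 0.24, 0 and 0.25 TPM (pLV-SEMA6A). Of 6 receptor genes, 5 were tested. Ifnar2, encoding the STAT-docking chain of the type I receptor, was the DEG, at 66.5, 73.0 and 66.1 TPM (pLV-Control) against 44.5, 42.4 and 43.6 TPM (pLV-SEMA6A), a log2 fold change of −0.64 (SE 0.048, adjusted p = 0.000116). Its partner chain Ifnar1 differed by −0.15 (adjusted p = 0.034). For the type II receptor, Ifngr1 differed by −0.23 (adjusted p = 0.0035) and Ifngr2 by −0.18 (adjusted p = 0.028). Il10rb, shared with type III interferon, differed by 0.23 (adjusted p = 0.037), and Ifnlr1 was at 0. With each library centred on its median, Ifnar1 was at −0.06 (adjusted p = 0.34), Ifngr1 at −0.14 (adjusted p = 0.026) and Ifngr2 at −0.085 (adjusted p = 0.20). Il10rb was further from 0 with that centring, at 0.32 (adjusted p = 0.011). In the fit with a replicate block, the adjusted p was 0.066 for Ifnar1, 0.077 for Ifngr2 and 0.053 for Il10rb, and leaving out single libraries took each of these genes above 0.05 in most cases. The receptor list had a median of −0.18, beside −0.06 over all tested genes, and its DEG was 1 of 5, beside 10.8%.

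Upstream of IRF3, IRF5 and IRF7, 20 of 24 sensors, adaptors and kinases were tested. DEGs that fell numbered 4 and none rose as a DEG, beside 10.8% and 5.12% of all tested genes, and the median log2 fold change was −0.13, beside −0.06 over all tested genes. The RNA sensor genes had the largest falls. Rigi (listed as Ddx58), encoding RIG-I, was at 91.2, 94.2 and 96.3 TPM (pLV-Control) against 31.9, 32.5 and 31 TPM (pLV-SEMA6A), a log2 fold change of −1.53 (adjusted p = 1.3e-06). Ifih1, encoding MDA5, was at 30.0, 30.2 and 33.3 TPM against 9.30, 10.1 and 9.88 TPM (−1.58, adjusted p = 9.1e-06). Tlr3, encoding the endosomal receptor for viral RNA, and Ikbke, encoding the IRF kinase IKKε, were the other DEGs. Tlr3 was at 4.40, 4.57 and 4.67 TPM against 3.21, 2.07 and 1.84 TPM (−0.74, adjusted p = 0.0105). Ikbke was at 8.44, 6.33 and 8.01 TPM against 3.60, 2.95 and 3.26 TPM (−1.003, adjusted p = 0.00095). These 4 genes were picked as DEGs, and in each the groups did not overlap. Of the 20 tested, 10 had every pLV-SEMA6A library below every pLV-Control library, beside 34.7% of all tested genes. Those lower at adjusted p under 0.05 numbered 10, and 1 was higher, beside 28.2% and 19.5% of all tested genes.

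The remaining tested activators were not DEGs. The gene of the other IRF kinase, Tbk1, differed by −0.03 (adjusted p = 0.79) and Sting1, encoding the adaptor for cytosolic DNA, by 0.03 (adjusted p = 0.68). Mavs, the adaptor for RIG-I and MDA5, was lower by less than the DEG minimum (−0.41, adjusted p = 0.00091). Myd88 was higher by less (0.38, adjusted p = 0.0013). Tlr7, Tlr8 and Tlr9 were at 0. Slc15a4, a lysosomal transporter needed for IRF5 activation, was at 41.6, 36.9 and 34.6 TPM (pLV-Control) against 13.6, 79.9 and 17.8 TPM (pLV-SEMA6A). Replicate 2 of pLV-SEMA6A stood apart from its group, the log2 fold change was −0.46 (adjusted p = 0.57), and without that library it was −1.22 (adjusted p = 0.0016).

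Among 16 regulators and coactivators of IRFs, 3 fell as DEGs, beside 10.8% of all tested genes, and the median was −0.04, nearer to 0 than the −0.06 over all tested genes. Of the 16, 6 were lower and 2 higher at adjusted p under 0.05, beside 28.2% and 19.5% of all tested genes. Usp18, encoding the ISG15 protease that also restrains IFNAR2 signaling, was at 147, 157 and 157 TPM (pLV-Control) against 30.2, 31.1 and 31.9 TPM (pLV-SEMA6A), a log2 fold change of −2.27 (SE 0.039, adjusted p = 4.4e-07). Trim21, an E3 ligase acting on several IRFs, was at 12.7, 10.8 and 13.3 TPM against 6.56, 6.23 and 4.87 TPM (−0.95, adjusted p = 0.0012). Both were separate between groups. Tnfaip3, encoding the deubiquitinase A20, was at 18.4, 15.1 and 16.04 TPM against 10.8, 9.57 and 12.8 TPM (−0.54, adjusted p = 0.0095). It was near the DEG minimum and was under it without pLV-Control replicate 1 (−0.47), without pLV-SEMA6A replicate 2 (−0.45) and with each library centred on its median (−0.45). For genes of the IRF2-binding proteins the log2 fold changes were −0.46 for Irf2bpl (adjusted p = 0.00018), 0.10 for Irf2bp1 (adjusted p = 0.22) and −0.03 for Irf2bp2 (adjusted p = 0.66). The coactivator genes Crebbp (0.09) and Ep300 (0.12) had adjusted p of 0.63 and 0.17.

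All 18 tested genes of a 26-gene list of known IRF targets were DEGs that fell, beside 10.8% of all tested genes, and the median log2 fold change was −1.97. The list was chosen with interferon-stimulated genes already known to be lower in these libraries. Antiviral effectors in it were Oas2 (−3.97), Rsad2 (−3.57), Bst2 (−2.61), Ifit3 (−2.50), Isg15 (−1.86), Mx2 (−1.55), Ifit1 (−1.37), Gbp2 (−0.99), Isg20 (−0.93) and Ifit2 (−0.90). Antigen processing was represented by Tap1 (−3.29), the immunoproteasome subunits Psmb9 (−3.23) and Psmb8 (−2.55), and the MHC class I activator Nlrc5 (−1.84). Psmb9 and Psmb8 averaged 0.47 and 0.58 TPM in pLV-SEMA6A. At such levels the added 1 makes the log2 fold change smaller than that of TPM. The secreted factors were Ccl5 (−2.94), Il15 (−2.08) and Cxcl10 (−1.68), and the checkpoint ligand was Cd274 (−1.13). The adjusted p-values of the 18 were at most 0.00105. Ccl5, a chemokine gene bound by IRF3 and IRF7, was at 542, 519 and 539.8 TPM (pLV-Control) against 61.5, 73.1 and 71.5 TPM (pLV-SEMA6A). Tap1, a peptide transporter gene regulated by IRF1, was at 46.0, 49.0 and 46.2 TPM against 3.11, 4.76 and 3.96 TPM. Both genes were well separated between groups. The 8 untested targets reached at most 1.78 TPM (Mx1). Summed over the list, the level was 2895 to 2979 TPM in pLV-Control and 590 to 624 TPM in pLV-SEMA6A.

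**Figure D5:**
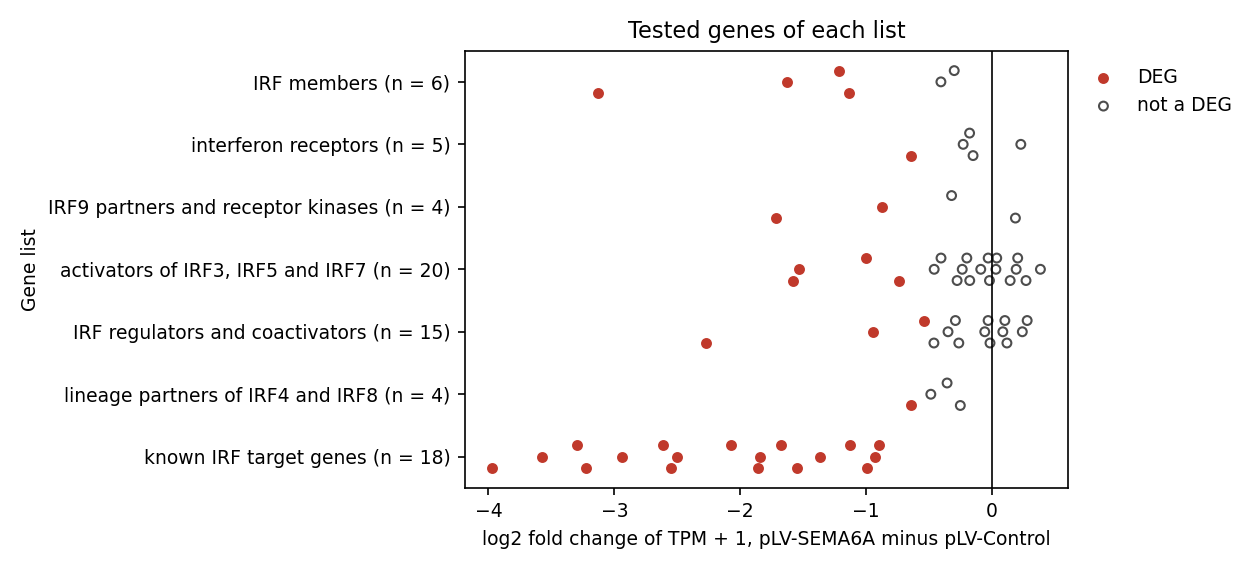
Log2 fold change of TPM + 1 (pLV-SEMA6A minus pLV-Control) of tested genes, by list. Genes whose results are not reported here are left out. Filled points are DEGs and open points are not. All DEGs shown lie below 0, the 18 target genes run from −3.97 to −0.90, and most activators and regulators are not DEGs.

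Over the 7 lists together, 68 of 108 genes were tested, 30 fell as DEGs and none rose. Without the target list, 12 of 50 fell, with a median of −0.21, beside 10.8% and −0.06 over all tested genes. The remaining lists were also chosen with earlier results of these data known.

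Promoters of the DEGs Irf7, Irf9 and Irf1 are shown, with that of Irf2, which was not a DEG, as the relative of Irf1. The promoter of Irf5, also a DEG, was searched as described below but is not printed. The sequences are from RefSeq on GRCm38.p6, which matched all 8 members, and cover 250 bases before the start site. They are printed 5′ to 3′ on the gene's strand, for Irf7 at chr7:141266425-141266674 (minus strand), Irf9 at chr14:55603735-55603984, Irf1 at chr11:53769764-53770013 and Irf2 at chr8:46739495-46739744 (plus strand). Irf1 and Irf9 each have another annotated start, whose window is not printed. Capitals mark matches to GAAANNGAAA, the repeat that IRFs recognize, or to TTCNNNGAA, the palindrome of STAT dimers.
Irf7 promoter: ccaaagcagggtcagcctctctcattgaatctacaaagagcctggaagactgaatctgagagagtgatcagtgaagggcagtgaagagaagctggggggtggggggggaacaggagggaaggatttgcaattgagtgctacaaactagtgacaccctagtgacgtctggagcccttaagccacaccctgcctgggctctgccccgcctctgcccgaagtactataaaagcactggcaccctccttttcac
Irf9 promoter: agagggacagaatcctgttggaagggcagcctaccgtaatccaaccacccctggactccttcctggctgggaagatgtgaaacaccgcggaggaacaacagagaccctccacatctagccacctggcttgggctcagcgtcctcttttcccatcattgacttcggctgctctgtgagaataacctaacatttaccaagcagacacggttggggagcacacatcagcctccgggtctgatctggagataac
Irf1 promoter: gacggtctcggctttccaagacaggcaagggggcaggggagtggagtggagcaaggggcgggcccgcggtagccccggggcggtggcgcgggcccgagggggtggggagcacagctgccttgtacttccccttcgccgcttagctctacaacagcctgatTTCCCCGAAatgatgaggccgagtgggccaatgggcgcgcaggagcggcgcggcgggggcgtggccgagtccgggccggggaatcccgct
Irf2 promoter: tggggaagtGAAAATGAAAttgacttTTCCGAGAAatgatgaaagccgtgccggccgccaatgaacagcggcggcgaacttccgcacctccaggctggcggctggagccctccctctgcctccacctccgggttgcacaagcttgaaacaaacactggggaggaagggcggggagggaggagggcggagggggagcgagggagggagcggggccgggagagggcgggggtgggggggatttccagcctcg

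Both strands of windows reaching from 250 bases before to 50 bases after the start were searched for GAAANNGAAA, TTCNNNGAA and TTCNNNNGAA. The Irf2 window held GAAAATGAAA, beginning at −241 from the start site, and TTCCGAGAA, at −224, which do not overlap. The Irf1 window held TTCCCCGAA, beginning at −90. In the Irf9 window TTCCTGGGAA, a match to TTCNNNNGAA, began 1 base after the start. The Irf7 window, like those of Irf3, Irf4 and Irf5, held no match, and neither did the windows of the other annotated starts. The Irf8 window had a pair of TTCNNNGAA matches, at −171 and −153. Of 32851 windows in the table, 3.44% held GAAANNGAAA, 8.30% TTCNNNGAA and 6.95% TTCNNNNGAA. A match is a description of letters, and factor binding was not measured.

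Genes beside the IRFs on the chromosome were compared in the same fit. Of 16 nearest tested neighbours, 1 fell as a DEG, beside 10.8% of all tested genes. At adjusted p under 0.05, 6 were lower and 4 higher, where 28.2% and 19.5% of all tested genes were. That gene, Rnf31, encodes the LUBAC subunit HOIP and overlaps Irf9 on the same strand over 123 bases, 2.28% of the exon bases of Irf9. It was at 15.5, 16.1 and 15.7 TPM (pLV-Control) against 10.97, 8.92 and 8.35 TPM (pLV-SEMA6A), a log2 fold change of −0.69 (adjusted p = 0.0016). The other neighbour of Irf9, Ipo4, was in the opposite direction (0.40, adjusted p = 0.0058). Beside Irf7, Phrf1, which overlaps it on the opposite strand over 1.19% of its exon bases, differed by −0.06 (adjusted p = 0.67) and Deaf1 by −0.48 (adjusted p = 0.0044). Beside Irf1, Rad50 differed by −0.22 (adjusted p = 0.0115, and 0.074 with median centring) and Slc22a5 by −0.44 (adjusted p = 0.063). Atp6v1f, on the other side of Irf5 from Tnpo3, differed by −0.15 (adjusted p = 0.010), and by −0.05 with median centring (adjusted p = 0.20). The neighbours of Irf3 (−0.30), Bcl2l12 (−0.49) and Scaf1 (−0.40), were lower too, with adjusted p of 0.0197 and 0.00039. Bcl2l12 overlaps Irf3 on the opposite strand over 88 bases, 2.56% of the exon bases of Irf3. Its adjusted p was 0.060 without pLV-SEMA6A replicate 2 and 0.054 without replicate 3. Beside Irf2, Trappc11 differed by 0.08 (adjusted p = 0.34). Neighbours of the members at or near 0 were Dusp22 (−0.06) and Exoc2 (−0.15) for Irf4, and Cox4i1 (−0.02) and Mthfsd (0.37) for Irf8. The adjusted p of Mthfsd was 0.0215, and 0.063 and 0.059 without pLV-SEMA6A replicates 1 and 2. Each of the falls of Irf7, Irf5, Irf9 and Irf1 was larger than that of either neighbour. These members were picked for their falls as DEGs, which favours that outcome. Irf3, which was not a DEG, fell less than either of its neighbours.

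The genes whose profile over the 6 libraries was most like that of each DEG were found from the root mean square difference of log2(TPM + 1), centred on each gene's mean, among 9840 genes averaging 5 TPM or more (9841 for Irf5, which is itself below that mean). The profile nearest to Irf7 was that of Ifi44, an interferon-inducible gene, with a difference of 0.017. Ifi44 was at 310.2, 316 and 326 TPM (pLV-Control) against 37.7, 35.4 and 32.1 TPM (pLV-SEMA6A). Next for Irf7 came Phf11d (0.115) and Psmb9 (0.119). Psmb9 fell 27.1-fold in mean TPM, to 0.47 TPM in pLV-SEMA6A, against 9.05-fold for Irf7. Its likeness to Irf7 therefore holds on the scale of log2(TPM + 1) only. Irf5 was closest to Slfn8 (0.063), AI480526 (0.064) and Ifi203 (0.079). For Irf9 the nearest were Ccn1 (0.036), a matricellular protein gene, Prr13 (0.049) and Ptgs2 (0.051), the prostaglandin synthase gene. Irf1 was nearest to Tmem231 (0.043), Tnfaip8 (0.069) and 5430416N02Rik (0.076). The likeness rests on 6 libraries in 2 groups.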

How the data were processed

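RNA of 3 pLV-Control and 3 pLV-SEMA6A SL4 libraries was poly-A selected, reverse transcribed with random primers and sequenced by Illumina. Values deposited by the authors are TPM with 2 decimals for each library and their mean TPM of each group, which was not used here. Per the submitters' processing notes, HISAT, Bowtie2, RSEM and genome build mm39 were used, with roles, annotation and strand setting not given in the sources used here. The supplement names DESeq2 and limma, but counts were not among the values analysed here.

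A limma 3.58.1 model (R 4.3.3, trend option, group term alone) was fitted to log2(TPM + 1) of the 12510 genes whose mean reached 1 TPM, with Benjamini-Hochberg adjustment. The DEG rule was an adjusted p below 0.05 with a log2 fold change above 0.5 in size. SE and 95% intervals are from that fit. TPM gives no read depth, so counting intervals could not be given. Ratios were compared with an exact permutation test.

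The members, lists and tests were chosen with earlier results of these data known. Genes named are all members, every DEG of each list, the receptors and ISGF3 genes, the nearest tested neighbours, and the 3 nearest profiles of each DEG member. Genes named besides these were chosen after their values were seen. The results of some genes that the rule names are not reported here.

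Gene positions and overlaps come from GENCODE M21 on GRCm38, matched by identifier (52093 of 53700, 97.0%), and promoters from RefSeq on GRCm38.p6. Since the files name mm39, coordinates are given only for the printed promoters. In simulated data, 91.0% of 200 genes given a log2 change of 1 were called among 12510, and 2.67% of calls were unchanged genes. The changed genes were drawn without those of low level, rose and fell equally often, and had independent noise. These rates therefore do not cover genes of low level or data in which many genes change.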

Additional observations from a re-analysis of the deposited data

How the results depend on the processing

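None of the 6 tested IRF genes changed direction with another pseudocount, with rescaled libraries or without any 1 library. The other settings leave the fold change as it is and can alter calls only. IRF genes that fell as DEGs numbered 4 under every setting except a mean of at least 5 TPM, which removes Irf5 (3), and no minimum fold change (6). At adjusted p under 0.05, 5 to 6 members were lower. Leaving out each library in turn gave log2 fold changes of −3.17 to −3.07 for Irf7, −1.76 to −1.50 for Irf5, −1.25 to −1.18 for Irf9 and −1.19 to −1.05 for Irf1. The size for Irf5 depended on the pseudocount, with −2.14 at a pseudocount of 0.1. Its mean TPM was 4.53-fold lower. Over all genes, DEGs that fell numbered 3523 and those that rose 2436 with no minimum fold change, and 304 and 81 with a minimum of 1. Centring each library on its median gave 1002 genes that rose. Among the list genes, 5 rose with no minimum and 1 with centring, and those that fell numbered 21 to 44. Under centring Tank went from −0.09 to 0.0034 and Cox4i1 from −0.02 to 0.078.

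Replicate numbers did not pair the libraries, with correlations of same-numbered deviations of −0.023, −0.079 and −0.074. With the replicate block, 4 members were DEGs, with adjusted p of 9.7e-05 for Irf7, 0.00060 for Irf9, 0.0027 for Irf1 and 0.0036 for Irf5, and 1301 of all genes fell and 623 rose. Read depth is unknown, which limits statements on Irf4, Irf8 and the interferon genes to what is listed.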

Other observations

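Irf8, listed at 0, lies within a gene listed as Galnt2l (Gm20388 in GENCODE M21) on the same strand, with no shared exon bases. Galnt2l was at 7519.7, 7511 and 7703 TPM (pLV-Control) against 21531, 22637 and 20889.8 TPM (pLV-SEMA6A). This gene was chosen after its values were seen.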
